A study of Rattus norvegicus with 8 samples.

Results

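The 38 genes described here encode the subunits of the rat proteasome, 3 chaperones of its base and its activators. They comprised 7 core alpha subunits (Psma1 to Psma7), 7 core beta subunits (Psmb1 to Psmb7), 6 base ATPases (Psmc1 to Psmc6), 3 base subunits that are not ATPases (Psmd1, Psmd2 and Psmd4), 8 lid subunits, 3 base chaperones and 4 activators. They were chosen by gene, as every array probe designed to a rat RefSeq transcript of one of them. The list was made with earlier results of these data known. All 38 were on the array and passed the filter on dim signal, with 40 probes on 81 spots, among 13460 genes tested. Psmd10 passed that filter through the arrays of the lower dose, since its probe was well above background on 1 of 4 arrays at the higher one.

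The samples were cultures of NR8383, an established rat alveolar macrophage line derived from lung washings. ZnO 16 cultures received zinc oxide at 16 µg/mL for 4 h and are labelled as cells of 200 passages, and ZnO 4 cultures received it at 4 µg/mL for 4 h and are labelled as cells of 20 passages. Each dose had 4 arrays, described in the series as biological replicates, and both groups were treated. Untreated cells, also mentioned in the series, were not analysed here, and because each dose lay on its own slide with its own scan, dose, passage number and slide cannot be told apart.

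The proteasome is the barrel-shaped protease that degrades proteins tagged with ubiquitin. Alpha subunits form the outer rings and gate of the core, and beta subunits form the inner rings that hold the active sites. The regulatory cap has a base, whose ring of ATPases unfolds substrates, and a lid, which removes the ubiquitin tag. In many cell types, the transcription factors Nfe2l1 and Nfe2l2 raise proteasome genes when proteolysis is blocked or electrophiles accumulate.

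Values below are log2 signals relative to the 75th percentile of the same array, so 1 unit is a 2-fold difference, and a gene was called when its adjusted p in the limma fit over all genes was under 0.05. The share of probes well above background ran from 31.5% to 39.3% per array, and no spot was saturated. Pearson correlations over all genes tested were 0.969 to 0.986 within ZnO 16, 0.973 to 0.991 within ZnO 4 and 0.915 to 0.947 between doses. Of 13 macrophage markers, 11 were well above background on all 8 arrays, Marco and Cd74 on none. Cd68 (difference -1.74) and Itgam (-0.52) were lower and Spi1 (0.81) was higher at ZnO 16. Counted the same way, markers of other cells were measured for 0 of 6 in alveolar epithelium, 1 of 5 in fibroblasts (Dcn), 2 of 4 in endothelium (Cdh5 and Vwf), 0 of 4 in T cells, 0 of 2 on the array in B cells and 0 of 3 in neutrophils. Vwf (-0.95) and Cd3d (-1.22) were lower at ZnO 16, and their part in the results below was not tested. An area of low signal covered 2668 spots of ZnO 4 replicate 4 and 440 spots of ZnO 4 replicate 2. The single spots of Psmc3 and Psmd12 lay in it on both arrays, as did 1 of the 10 spots of Psma7. On replicate 4 it also held 1 of the 10 spots of Psmb4.

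Most proteasome transcripts differed little between ZnO 16 and ZnO 4. Of the 38 members, 9 were higher at ZnO 16, 4 were lower and 25 did not pass the test. Over all genes tested 41.7% were called, 19.8% higher and 21.9% lower, so the members' share of 13 in 38 (34.2%) lay near the background. Among members well above background on every array, 12 of 35 were called, against 41.1% of such genes. The median difference of the members was 0.12, against 0.00 over all genes, and 29 of 38 differences were positive. This lean depended on the setting. In the reported fit 29 of 38 members lay above the all-gene median. With normexp background correction of the median signals it was 16 of 38, and with no filter on dim probes 20 of 38. Among genes well above background on all 8 arrays it was 19 of 35. The members' median size of difference, without sign, was 0.28. Over all genes tested it was 0.47, and over the 10414 genes well above background on all 8 arrays 0.40. Only 3 members (Psmc3, Psmd10 and Psmd12, 7.89%) had a fitted difference of 1 log2 unit or more, against 20.3% of all genes. The size for Psmc3 rested on 1 array and that for Psmd10 is no measured size, as described below. Among members well above background on every array it was 1 of 35 (Psmd12, 2.86%), against 13.4% of such genes. For 32 of 38 members (84.2%) the 95% interval of the difference lay inside 1 log2 unit on either side of 0, against 53.6% of all genes tested. Among those well above background on all 8 arrays it was 88.6% of members, against 64.3% of genes. For 13 members the 4 arrays of each dose did not overlap, against 39.9% of all genes. In these bulk cultures a change in RNA per cell and a change in the share of a cell state cannot be told apart.

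The split of calls between directions depended on how arrays were scaled. With 9 higher and 4 lower after scaling to the 75th percentile, it was 14 and 2 after scaling to the median, 1 and 5 with no scaling, and 0 and 7 after scaling to the spiked-in control transcripts. Over all genes the same settings, in the same order, gave 2669 higher and 2943 lower, then 3405 and 1980 after median scaling, 229 and 4417 with no scaling, and 224 and 5084 after spike-in scaling. The differences below are therefore relative to the bulk of genes on the array. Single-gene differences and calls with median scaling, no scaling, spike-in scaling and normexp background correction are given after the all-gene median shift was subtracted. With normexp this shift was 0.15, so a small negative value with normexp can be positive before the subtraction.

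**Figure D1:**
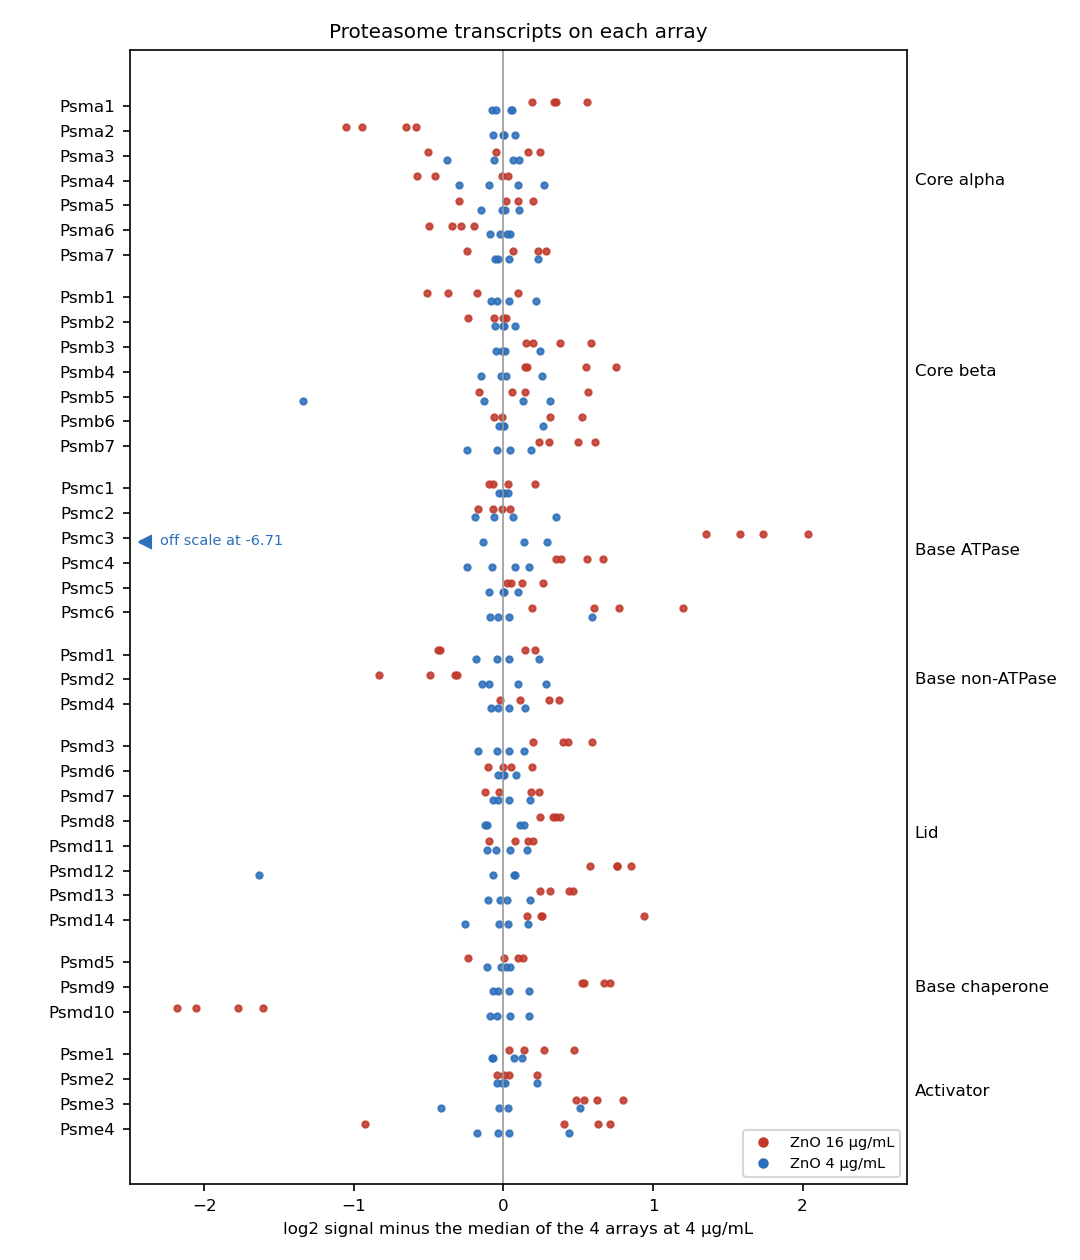
Log2 signal of the 38 members on each array, drawn as the distance from the median of the 4 arrays at ZnO 4 (x axis, log2 units), with ZnO 16 in red above ZnO 4 in blue for each gene and genes ordered by their place in the complex. Psmd9, Psmb7 and Psmc4 at ZnO 16 lie right of every ZnO 4 array, Psma2 and Psmd10 left of every ZnO 4 array, and the Psmc3 value of ZnO 4 replicate 4 lies off the scale.

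Among the 7 core alpha subunits, which form the outer rings, Psma1 was higher and Psma2 and Psma6 were lower at ZnO 16. The other 4 did not pass the test, and the group's median difference was 0.01. Psma2 had log2 values of 1.11, 1.48, 1.01 and 1.41 at ZnO 16, against 2.06, 2.06, 1.99 and 2.14 at ZnO 4. Every ZnO 16 array lay below every ZnO 4 array. The difference was -0.81 (SE 0.13, 1.75-fold lower, adjusted p = 0.000883). Psma1 had 3.24, 3.25, 3.09 and 3.46 at ZnO 16, against 2.85, 2.96, 2.95 and 2.82 at ZnO 4. The doses did not overlap, and the difference was 0.37 (SE 0.11, 1.29-fold, adjusted p = 0.0250). With normexp background correction of the median signals the Psma1 difference was -0.015 relative to the all-gene median, without a call. Psma6 averaged 4.93 ± 0.13 at ZnO 16 and 5.25 ± 0.061 at ZnO 4 (SD, n = 4 each), a difference of -0.32 (SE 0.11, adjusted p = 0.0410) that was called in 5 of 20 alternative settings. Psma3, Psma5 and Psma7 had differences of 0.03, 0.01 and 0.04, and Psma4 of -0.25, all with overlapping doses.

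The promoter of Psma2 is shown because this gene had the largest called difference of the core subunits. It is the RefSeq sequence of assembly GRCr8, chr17:55260392-55260691, minus strand, from 250 bases before the annotated start of the gene to 50 after it, with a CCAAT box in capitals 77 bases before the start.
Psma2: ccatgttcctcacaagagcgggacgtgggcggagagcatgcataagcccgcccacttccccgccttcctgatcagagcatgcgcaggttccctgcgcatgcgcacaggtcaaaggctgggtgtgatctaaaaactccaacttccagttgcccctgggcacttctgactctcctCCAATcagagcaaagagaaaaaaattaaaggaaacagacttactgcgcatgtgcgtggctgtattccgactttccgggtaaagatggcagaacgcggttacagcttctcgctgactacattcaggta

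Among the 7 core beta subunits only Psmb7 was called. Psmb7, which carries the trypsin-like active site, had log2 values of 3.15, 3.45, 3.08 and 3.34 at ZnO 16, against 2.80, 3.03, 2.89 and 2.60 at ZnO 4. All ZnO 16 arrays lay above all ZnO 4 arrays, by a narrow margin for replicate 3 of ZnO 16 and replicate 2 of ZnO 4. The difference was 0.43 (SE 0.13, 1.34-fold, adjusted p = 0.0263), or 0.26 with normexp, without a call. The other active-site subunits were not called: Psmb5, the chymotrypsin-like one, differed by 0.41 (SE 0.32, adjusted p = 0.330) and Psmb6, the caspase-like one, by 0.13 (SE 0.15, adjusted p = 0.518). Psmb5 had 5.22, 5.73, 5.30 and 5.00 at ZnO 16, against 3.82, 5.47, 5.03 and 5.29 at ZnO 4, and replicate 1 of ZnO 4 was the low one. Without that array the Psmb5 difference was 0.047. A second probe of Psmb6 differed by 0.25 and was not called either. Of the structural subunits, Psmb3 (0.28) and Psmb4 (0.38) had positive differences and Psmb1 (-0.27) and Psmb2 (-0.08) negative ones. Psmb4 was called in 5 of 20 alternatives, with adjusted p from 0.00537 to 0.464.

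Arrays of the same dose differed in the median level of the core beta transcripts. The median deviation of the 7 genes from their own means was -0.03, 0.40, 0.18 and -0.06 on ZnO 16 replicates 1 to 4, against -0.24, 0.11, -0.15 and -0.13 at ZnO 4. By this median replicates 2 and 3 stood high at ZnO 16, and replicate 2 at ZnO 4. Single genes differed from it, since Psmb2 and Psmb7 had their lowest ZnO 16 value on replicate 3. The 75th percentile of raw signal on the same arrays was 374, 151, 190 and 381 at ZnO 16, against 516, 313, 479 and 428 at ZnO 4, and its part in these values was not tested. Over all 38 members, replicate 2 held the highest value of its dose for 20 genes at ZnO 16 and for 18 genes at ZnO 4.

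**Figure D2:**
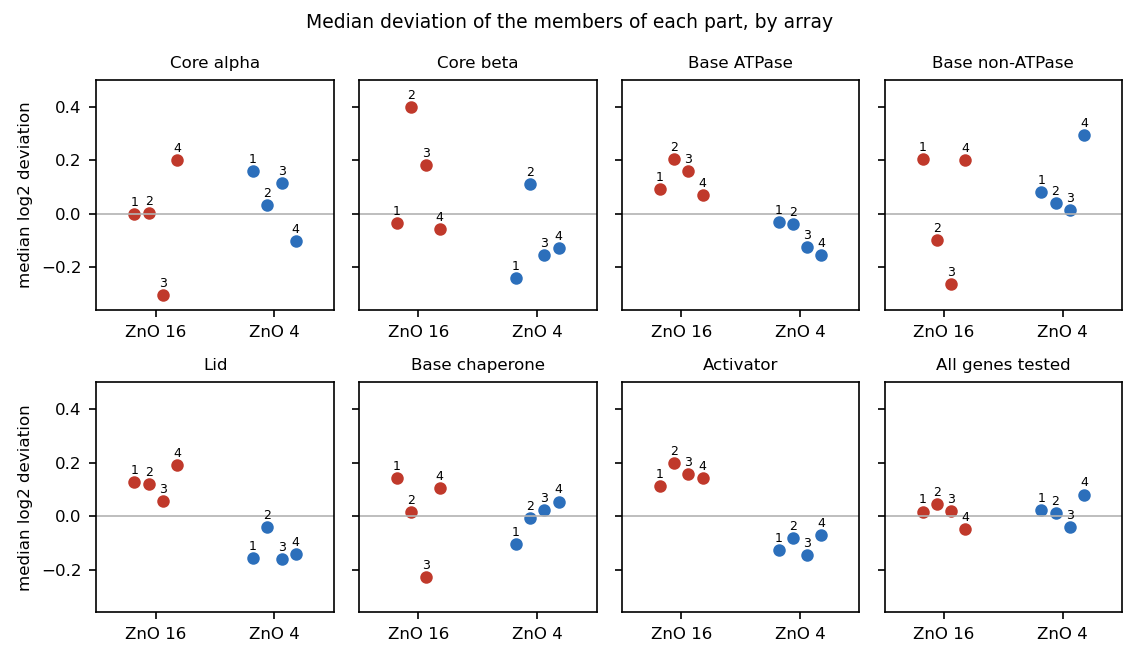
Median log2 deviation of the members of each part of the proteasome from their own 8-array means (y axis, log2 units), for each array of ZnO 16 (red, left) and ZnO 4 (blue, right), with replicate numbers above the points and all genes tested in the last panel. Lid, base ATPase and activator medians at ZnO 16 all lie above those at ZnO 4, while core alpha and core beta medians overlap.

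Of the 6 base ATPases, which form the ring that unfolds substrates, only Psmc4 was called. Psmc3 had the largest fitted difference of all members, whose size rested on 1 array and which did not pass the test. Psmc4 had log2 values of 2.78, 3.09, 2.99 and 2.81 at ZnO 16, against 2.18, 2.59, 2.35 and 2.50 at ZnO 4. The doses did not overlap, and the difference was 0.51 (SE 0.13, 1.42-fold, adjusted p = 0.0103). Psmc4 kept its call with each array left out in turn. Its call was lost with normexp (0.30), with no scaling and with spike-in scaling.

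Psmc3 was singled out after its values were seen. Its values were 3.74, 4.20, 3.90 and 3.52 at ZnO 16, against 2.30, 2.03, 2.45 and -4.55 at ZnO 4. All ZnO 16 arrays lay above all ZnO 4 arrays, and replicate 4 of ZnO 4, where the only spot of this probe lay in the area of low signal, was far below the rest. Over all 8 arrays the difference was 3.28 (SE 1.30, adjusted p = 0.0653). Without ZnO 4 replicate 4 it was 1.58 (SE 0.18, 2.99-fold, adjusted p = 0.000111), with ZnO 4 at 2.26 ± 0.21 (SD, n = 3). With both affected spots masked it was 1.47 (SE 0.20, adjusted p = 0.000392, 2 arrays left at ZnO 4). Across its 19 alternatives the adjusted p ranged from 0.000111 to 0.116 and 7 gave a call.

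The other ATPases had small or variable differences. Psmc6 differed by 0.56 (SE 0.24, adjusted p = 0.0826), with values of -1.37, -1.95, -0.94 and -1.54 at ZnO 16, against -1.55, -2.18, -2.23 and -2.10 at ZnO 4. Replicate 2 of ZnO 16 fell below replicate 1 of ZnO 4. Psmc1, Psmc2 and Psmc5 differed by 0.02, -0.09 and 0.12, and the second Psmc1 probe by 0.07.

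The Psmc3 promoter (RefSeq, GRCr8, chr3:97487393-97487692, plus strand, the same window) is shown because it was the only member promoter with both short heat shock elements searched. In capitals are GAACCTTC, 151 bases before the start, TTCCCGAA, 96 bases before it, and a CCAAT box 16 bases before it.
Psmc3: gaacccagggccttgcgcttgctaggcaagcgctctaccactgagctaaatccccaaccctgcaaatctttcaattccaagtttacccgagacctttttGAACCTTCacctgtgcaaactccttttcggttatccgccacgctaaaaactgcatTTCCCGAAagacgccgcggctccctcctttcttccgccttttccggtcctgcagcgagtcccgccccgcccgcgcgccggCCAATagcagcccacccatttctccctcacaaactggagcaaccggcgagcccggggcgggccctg

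Of the base subunits that are not ATPases, Psmd2 was lower at ZnO 16. This scaffold subunit docks ubiquitin receptors and shuttle proteins. It had log2 values of 4.57, 4.55, 4.39 and 4.05 at ZnO 16, against 4.73, 4.97, 4.78 and 5.16 at ZnO 4. The doses did not overlap, and the difference was -0.52 (SE 0.15, 1.44-fold lower, adjusted p = 0.0197). Without ZnO 4 replicate 2 its adjusted p was 0.0502, and over 20 alternatives it ranged from 0.00513 to 0.343. The other large scaffold, Psmd1, differed by -0.14 (SE 0.18), and Psmd4, a ubiquitin receptor, by 0.18 (SE 0.12), neither with a call.

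Of the 8 lid subunits, 4 were higher at ZnO 16 (Psmd3, Psmd8, Psmd12 and Psmd13), 0 were lower, and their median difference was 0.33. With 4 of 8 called, against 41.7% of all genes, the lid's share of calls in either direction lay near the background. All 4 calls were higher, against 19.8% of all genes called higher and 21.9% called lower, and this split was not tested. All 8 differences were positive. Relative to the all-gene median, 8 of 8 were above it with quantile normalization, 5 of 8 with normexp background correction, 5 of 8 with no filter on dim probes 6 of 8 with genes well above background on all arrays, 6 of 8 without ZnO 16 replicate 4 and 6 of 8 without ZnO 4 replicate 4. With normexp Psmd7 was called lower, at -0.48 (adjusted p = 0.0157). Psmd12, a structural subunit, had 3.74, 3.64, 3.46 and 3.64 at ZnO 16, against 2.96, 2.95, 2.81 and 1.24 at ZnO 4. The doses did not overlap, and replicate 4 of ZnO 4 was again the low array. The difference was 1.13 (SE 0.33, 2.19-fold, adjusted p = 0.0207). Without that array it was 0.71 (SE 0.12, 1.64-fold, adjusted p = 0.00144), with ZnO 4 at 2.91 ± 0.083 (SD, n = 3), and with both affected spots masked 0.74. Its adjusted p ranged from 0.00144 to 0.0957 over 20 alternatives.

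Psmd3 averaged 1.75 ± 0.16 at ZnO 16 and 1.33 ± 0.13 at ZnO 4 (SD, n = 4 each), a difference of 0.41 (SE 0.12, adjusted p = 0.0225). Psmd13 averaged 2.51 ± 0.10 at ZnO 16 and 2.16 ± 0.12 at ZnO 4, a difference of 0.35 (SE 0.11, adjusted p = 0.0302). Psmd8 averaged 2.51 ± 0.057 at ZnO 16 and 2.19 ± 0.14 at ZnO 4, a difference of 0.32 (SE 0.11, adjusted p = 0.0365). None of the 3 overlapped between doses. Calls were kept in 6, 4 and 2 of 8 fits that left out an array for Psmd3, Psmd13 and Psmd8. With normexp the differences were 0.042 for Psmd13 and 0.035 for Psmd8, without a call. The deubiquitinase of the lid, Psmd14, had 1.27, 1.17, 1.26 and 1.95 at ZnO 16, against 0.98, 1.04, 1.17 and 0.75 at ZnO 4. Replicate 4 of ZnO 16 stood high, and the difference of 0.43 (SE 0.18, adjusted p = 0.0822) was not called. Psmd6, Psmd7 and Psmd11 differed by 0.02, 0.04 and 0.08.

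**Figure D3:**
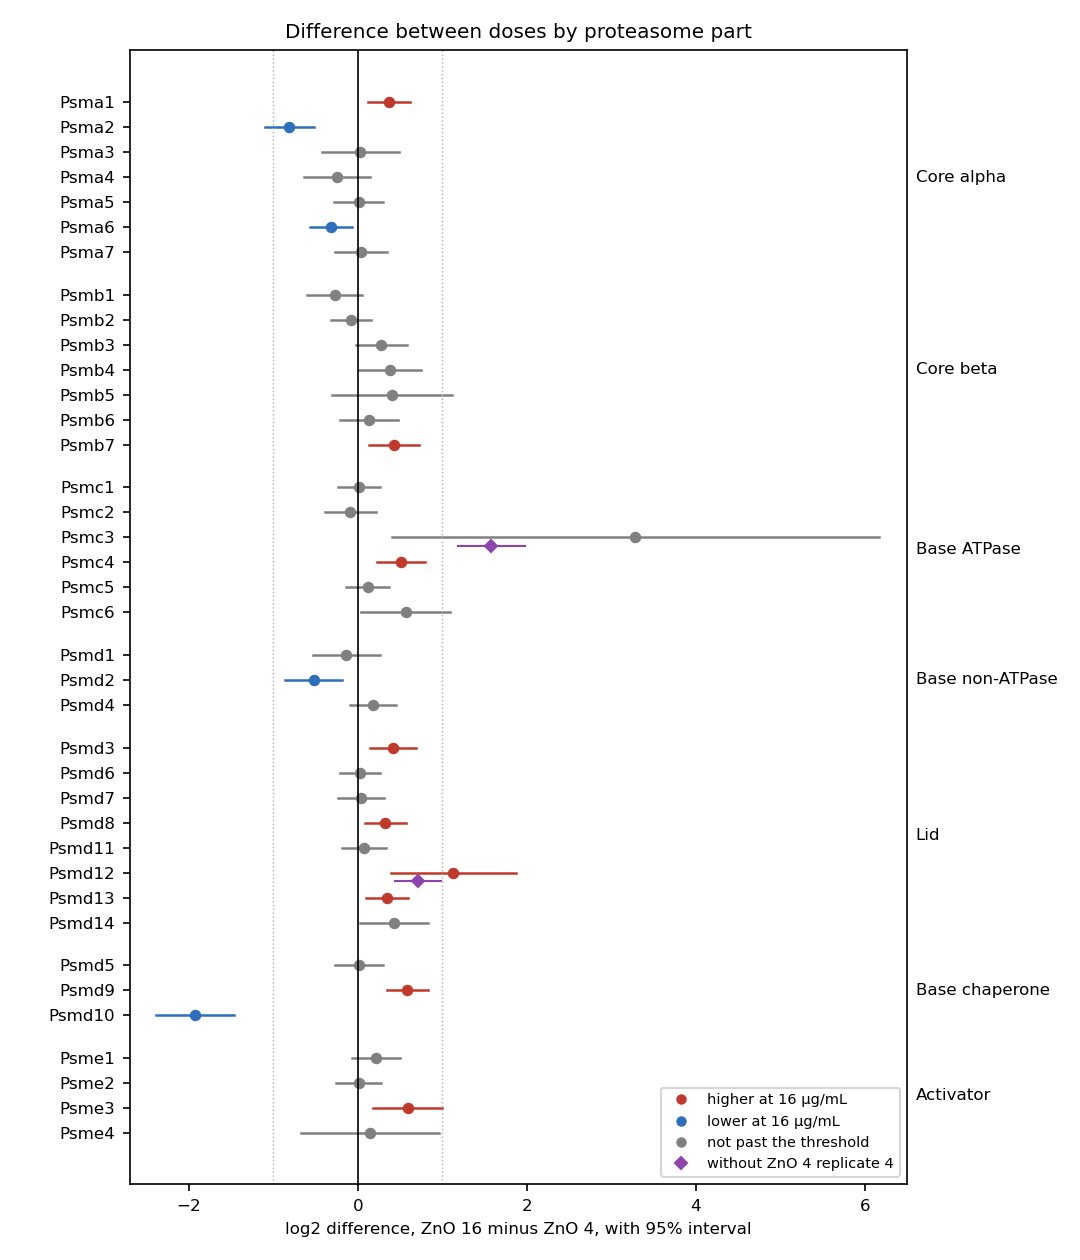
Log2 difference of each member, ZnO 16 minus ZnO 4 (x axis), with its 95% interval, coloured by whether the limma test called it higher, lower or neither, with dotted lines at 1 log2 unit either side of 0 and purple diamonds for Psmc3 and Psmd12 without ZnO 4 replicate 4. The 4 called lid genes are red, core alpha holds both colours, and Psmd10 is the lowest point at -1.93.

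The 3 base chaperones hold ATPases during assembly of the cap and leave before it is complete. Psmd9 was higher, Psmd10 was lower and Psmd5 differed by 0.02. Psmd9, which binds Psmc3 and Psmc6 in human cells, had log2 values of 2.06, 2.24, 2.05 and 2.20 at ZnO 16, against 1.49, 1.69, 1.46 and 1.56 at ZnO 4. All ZnO 16 arrays lay above all ZnO 4 arrays. The difference was 0.59 (SE 0.11, 1.50-fold, adjusted p = 0.00209), and it was called in 18 of 20 alternatives, all but no scaling and spike-in scaling. With normexp it was 0.38.

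Psmd10, also called gankyrin, binds Psmc4. It had -3.97, -3.81, -4.26 and -4.38 at ZnO 16, against -2.03, -2.15, -2.28 and -2.24 at ZnO 4. No ZnO 16 array reached the ZnO 4 values. Its probe was well above background on 1 of 4 arrays at ZnO 16 and on 4 of 4 at ZnO 4, and it entered the test through the dose where it was high. The fitted difference of -1.93 (SE 0.21, adjusted p = 6.72e-05) is therefore no measured size, and with normexp it was -0.58 (adjusted p = 0.0474). Over 19 alternatives the adjusted p ranged from 3.71e-05 to 0.0474.

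The 2 promoters shown next belong to these chaperones, the pair of opposite direction within 1 group. Psmd9 (RefSeq, GRCr8, chr12:39018215-39018514, minus strand) has in capitals antioxidant response element cores 124 and 77 bases before the start. The core at 124 bases lies on the other strand, as does a CCAAT box 42 bases before the start, also in capitals. Psmd10 (chrX:109453556-109453855, minus strand) has in capitals CCAAT boxes 232, 49 and 26 bases before the start, and no antioxidant core. Over the member promoters, 3 genes without this core were higher and 3 lower, and with it 5 were higher and 1 lower. A link between motif and direction was not tested. ATTGG in capitals is the CCAAT box read on the other strand.
Psmd9: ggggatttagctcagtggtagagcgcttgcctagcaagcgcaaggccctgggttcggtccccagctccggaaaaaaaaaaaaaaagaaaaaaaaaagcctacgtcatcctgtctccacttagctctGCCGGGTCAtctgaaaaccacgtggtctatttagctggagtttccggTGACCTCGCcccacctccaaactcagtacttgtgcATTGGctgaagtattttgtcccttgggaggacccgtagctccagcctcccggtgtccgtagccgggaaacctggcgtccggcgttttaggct
Psmd10: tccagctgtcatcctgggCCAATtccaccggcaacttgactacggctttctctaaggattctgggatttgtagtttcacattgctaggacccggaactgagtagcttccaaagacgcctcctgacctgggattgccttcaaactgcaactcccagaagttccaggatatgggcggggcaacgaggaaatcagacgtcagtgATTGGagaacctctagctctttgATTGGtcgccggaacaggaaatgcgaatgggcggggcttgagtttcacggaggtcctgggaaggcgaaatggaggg

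Of the 4 activators, which open the core without ATP, Psme3 was higher at ZnO 16. It forms the nuclear activator ring and had log2 values of 1.27, 1.18, 1.12 and 1.44 at ZnO 16, against 0.22, 0.61, 0.67 and 1.15 at ZnO 4. The doses overlapped, because replicate 4 of ZnO 4 lay above replicate 3 of ZnO 16. The difference was 0.59 (SE 0.18, 1.50-fold, adjusted p = 0.0261), and it was called in 3 of 8 fits that left out an array. Psme1 and Psme2, the interferon-inducible pair, differed by 0.22 and 0.01, and Psme4 by 0.14 (SE 0.37), with its probe well above background on 3 of 4 arrays at each dose.

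Across all parts, the ATPase, lid and activator medians were 0.31, 0.33 and 0.18, against 0.01 for core alpha, 0.28 for core beta and -0.14 for the other base subunits. These differences between parts were not tested, and they depended on the setting. With normexp, relative to all genes, the medians were 0.043 for ATPases, 0.038 for the lid, 0.099 for activators, -0.24 for core alpha, 0.072 for core beta and -0.36 for the other base subunits. Among members well above background on all 8 arrays the ATPase median was 0.12, and without ZnO 4 replicate 1 the core beta median was 0.11. Taken as whole assemblies, the 14 core subunits gave 2 higher and 2 lower, with a median of 0.04. The 17 base and lid subunits gave 5 higher and 1 lower, with a median of 0.18. Over all genes tested 19.8% were called higher and 21.9% lower, and the difference between assemblies was not tested. Calls were not confined to 1 assembly. Psma2, Psmc4, Psmd12 and Psmd9 kept their calls in all 8 fits that left out an array, Psmd2 in 7, Psma1 in 6 and Psmb7 in 5. Without ZnO 4 replicate 4 there were 8 members higher and 3 lower, and with the low-signal areas masked 10 and 4.

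**Figure D4:**
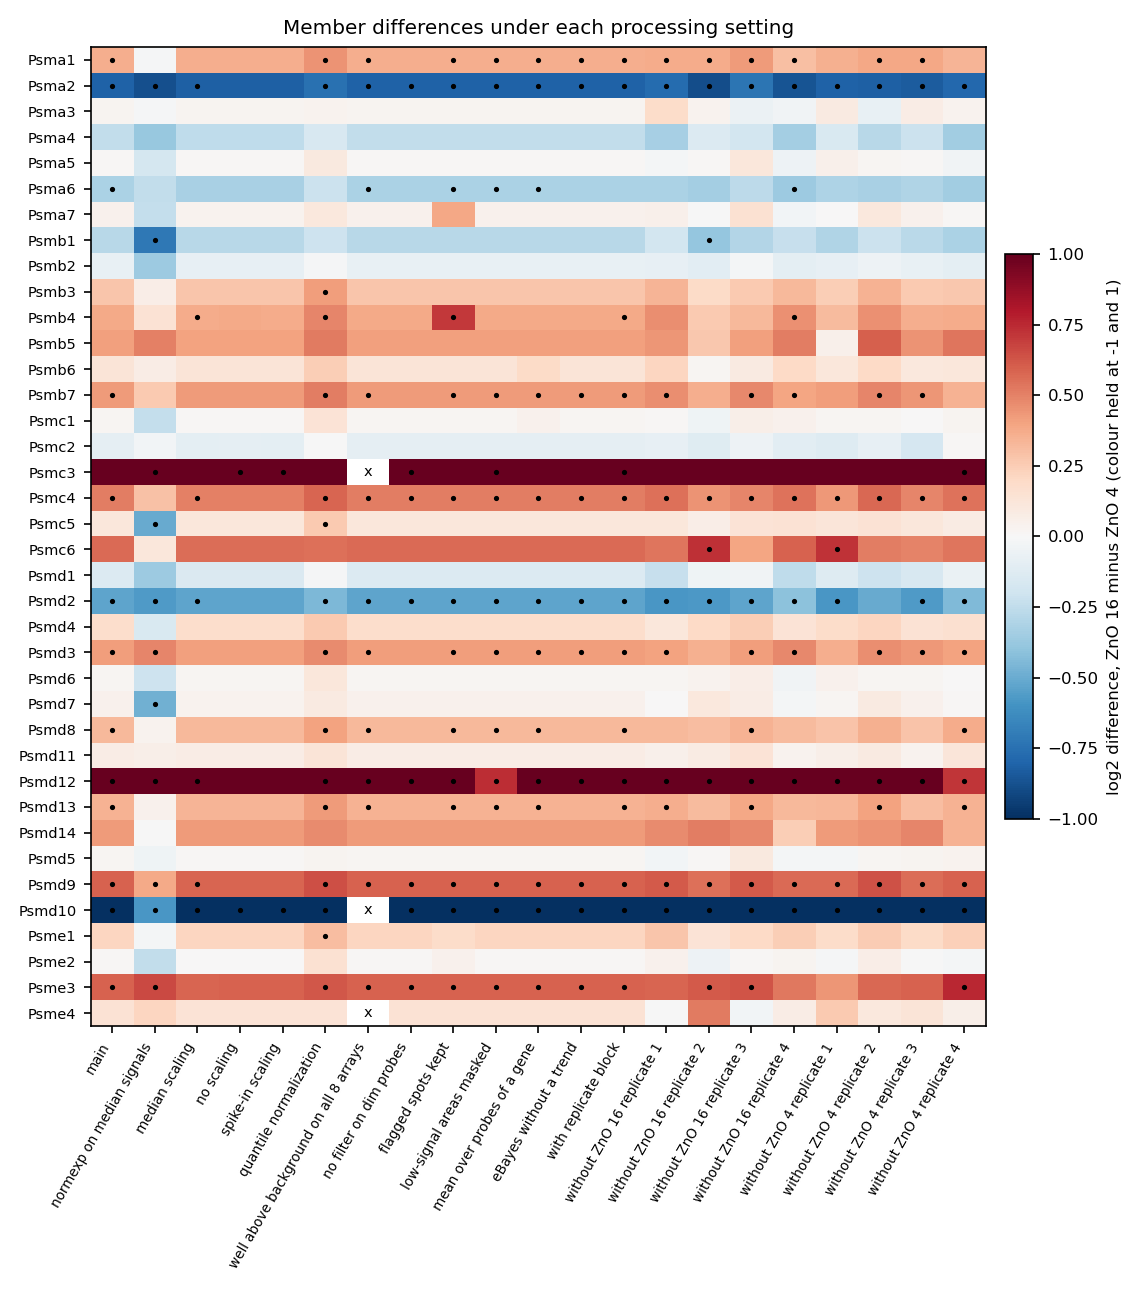
Log2 difference of each member, ZnO 16 minus ZnO 4, in the fit reported and in 20 alternative settings (columns), as colour from blue (lower) to red (higher), held at 1 log2 unit on either side of 0. Black dots mark adjusted p under 0.05 and x a gene not measured in that setting, and Psma2 and Psmd9 have a dot in every column but those with no scaling and spike-in scaling.

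Gene copies limit what some probes can tell. The RefSeq gene table lists 49 pseudogenes or like-named copies for 18 of the members. Among the called members these were 2 for Psma2, 5 for Psma6, 2 for Psmb7, 3 for Psmc4, 2 for Psmd8, 1 for Psmd12 and 4 for Psme3, and whether their transcripts bind these probes is uncertain. Psma1, Psmd2, Psmd3, Psmd9, Psmd10 and Psmd13 had 0 listed, as did Psmc3.

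Promoters of 34 of 38 members were matched in the RefSeq table, each 300 bases long. Psma7, Psmd6, Psmd12 and Psmd14 were not matched. The antioxidant response element core was searched as TGANNNNGC, where N is any base. This is a loose pattern for sites of Nfe2l1 and Nfe2l2 with their partners, and a match does not show that they bind. It was present on either strand in 19 of 34 member promoters (55.9%), against 40.5% of all 33469 promoters. The CCAAT box was present on either strand in 17 of 34 (50.0%), against 37.5%. Of the 19 with the antioxidant core 5 were higher and 1 lower, and of the 15 without it 3 were higher and 3 lower. The median difference was 0.13 with this core and 0.12 without it. Among the 17 with a CCAAT box 5 were higher and 2 lower, and among the 17 without it 3 and 2. Here the median difference was 0.04 with the box and 0.13 without it. Over all genes 19.8% were called higher and 21.9% lower, and the differences between members with and without a motif were not tested.

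Rarer motifs were found in few members. The heat shock element GAANNTTC was in 2 (Psmc3 and Psmd1, 5.88%), against 8.59% of all promoters, and TTCNNGAA in 1 (Psmc3), against 8.77%. The ATF4 and CHOP element TGATGNAAN was in 2 (Psmb2 and Psmb4), against 3.97%, and the cyclic AMP element TGACGTCA in 1 (Psmb2), against 1.83%. The antioxidant core can overlap the other TGA motifs and, in Psma5 and Psmb2, a CCAAT box. The median GC content was 56.5% in member promoters and 51.7% in all, so chance matches need not be equally frequent in both.

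Other genes of the pathway, on a list of 38, were read in the same fit. Of these, 27 were tested, 7 were higher, 4 were lower and 16 did not pass the test, with a median difference of 0.06. The 11 calls among 27 lay near the 41.7% of all genes. Zfand2a, an arsenite-inducible factor that associates with the proteasome, was the highest. Its values were 6.79, 7.12, 6.99 and 6.76 at ZnO 16, against 2.78, 2.96, 3.19 and 2.76 at ZnO 4. The gap between doses was many times the spread within either, with a difference of 3.99 (SE 0.14, 15.9-fold, adjusted p = 6.52e-08).

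Cofactors of the segregase Vcp, which extracts ubiquitin-tagged proteins from membranes and complexes, were among the calls. Ufd1 had 0.94, 0.95, 0.80 and 0.60 at ZnO 16, against 0.04, -0.25, 0.08 and -1.74 at ZnO 4. The doses did not overlap, and the difference was 1.29 (SE 0.35, adjusted p = 0.0140), or 0.87 without ZnO 4 replicate 4. Its partner Nploc4 was higher by 0.73 (adjusted p = 0.000817), without overlap. The adaptor Faf2 was lower by 0.43 (adjusted p = 0.0318), with overlapping doses. Vcp itself had 3.63, 3.59, 3.47 and 3.82 at ZnO 16, against 3.04, 3.31, 3.20 and 3.46 at ZnO 4. The doses were separated narrowly, with a difference of 0.38 (adjusted p = 0.0371). It was called in 8 of 20 alternatives, and its difference was -0.05 with normexp.

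Of the shuttle factors, which carry ubiquitin-tagged proteins to the proteasome, Ubqln4 was higher. It had -1.34, -0.51, -0.72 and -1.51 at ZnO 16, against -2.58, -2.09, -2.33 and -1.98 at ZnO 4. All ZnO 16 arrays were higher, with a difference of 1.23 (SE 0.25, adjusted p = 0.00317). With normexp it was 0.57 (adjusted p = 0.0383), and over 20 alternatives the adjusted p ranged from 0.00129 to 0.0383.

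Psmg4, a chaperone of core assembly, had 1.45, 1.76, 1.26 and 1.01 at ZnO 16, against 2.67, 2.77, 2.63 and 2.47 at ZnO 4. It was lower on every ZnO 16 array, with a difference of -1.26 (SE 0.16, 2.40-fold lower, adjusted p = 0.000196), and was called in all 20 alternatives. Pomp, which matures the core, differed by -0.08 (adjusted p = 0.616). Txnl1, a thioredoxin-like protein bound to the cap, had -0.93, -0.87, -0.91 and -0.56 at ZnO 16, against -0.17, -0.24, -0.07 and -0.36 at ZnO 4. Its doses did not overlap, with a difference of -0.61 (SE 0.14, adjusted p = 0.00634).

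Of the transcription factors, Nfe2l2 was higher. Its values were 2.42, 2.26, 2.23 and 2.57 at ZnO 16, against 1.87, 1.78, 2.00 and 1.57 at ZnO 4. The doses did not overlap, and the difference was 0.56 (SE 0.13, adjusted p = 0.00685), or 0.19 with normexp, without a call. No probe was matched to Nfe2l1. Immunoproteasome subunits replace the active-site subunits of the core in immune cells. Psmb9 had 3.79, 4.27, 4.27 and 3.95 at ZnO 16, against 3.46, 3.68, 3.42 and 3.54 at ZnO 4. It was higher on every ZnO 16 array, with a difference of 0.54 (SE 0.14, adjusted p = 0.0103). Psmb8 differed by 0.25 (adjusted p = 0.152) and Psmb10 by -0.15 (adjusted p = 0.572), both with overlapping doses. With normexp the Psmb9 difference was 0.01, without a call.

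**Figure D5:**
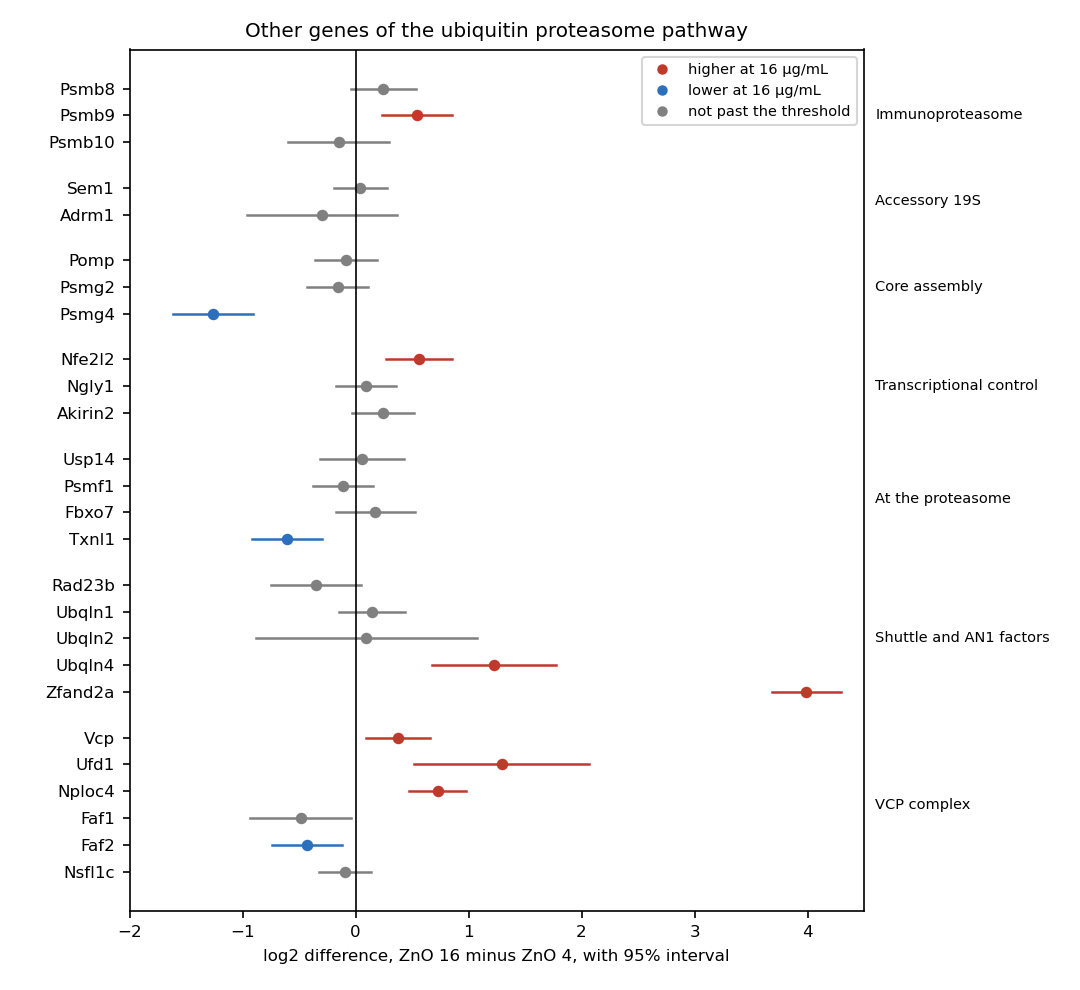
Log2 difference, ZnO 16 minus ZnO 4 (x axis), with 95% interval, for tested genes of the wider pathway, grouped by role and coloured by call. Zfand2a stands alone at 3.99, Ufd1 and Ubqln4 lie above 1, and Psmg4 is the lowest.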

How the data were processed

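RNA from 8 cultures was labelled with Cy3 and hybridised to 1-colour Agilent arrays, per the labels' protocols. Scanner output was deposited, and the submitters' processing notes name Agilent Feature Extraction 11.0.1.1. The processed signal is a linear intensity that the authors deposited after background subtraction within each array, per the file headers, with no normalization between arrays, beside raw median intensities. Other deposited columns are flags of 0 or 1 for spots well above background, saturated or outlying.

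Here, log2 processed signal minus the 75th percentile of the array was used. Flagged spots (non-uniform or population outliers) were set missing, repeated spots were averaged by probe, and dim probes were dropped unless well above background on 3 or more of the 4 arrays of either dose. The probe with the highest mean stood for its gene. ZnO 16 minus ZnO 4 was fitted over 13460 genes with limma (version 3.58.1, under R 4.3.3) using lmFit and eBayes with a trend, two-sided, and genes with a Benjamini-Hochberg adjusted p under 0.05 were called. P-values measure only the spread between these arrays, and 4 arrays per dose limit the precision. Genes were named from a RefSeq table of GRCr8, whose coordinates were not joined to the files because their headers give a different build, and 21109 of 45598 probes had a symbol.

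Values were given in full for the called members with the largest rise and fall in each part, and for the 3 largest rises and falls on the pathway list with a few genes named for their role. The result of 1 gene on the pathway list is not reported here, though the counts over the list include it. Members and lists were chosen with earlier results of these data known. The 20 alternatives covered background correction, scaling, filters, flags, probe choice, the eBayes trend, the replicate block and leaving out each array. On simulated data with 200 changed among 13312 genes, 4% of changes of 0.5 log2 units were recovered, 50% of 1, 90% of 2 and 98% of 3, and 8 unchanged genes were called. In the data 41.7% of genes were called, a far larger share than was changed in the simulation. With so few changed genes the adjusted threshold is stricter, so these shares do not give the recovery in the data. Promoter motifs were counted with no test.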

Additional observations from a re-analysis of the deposited data

Results flagged for a closer look

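Of 100 sets of 4 arrays, 1 per dose for each of 38 members and 12 pathway genes, 5 held a value whose gap to its nearest neighbour was an unusually large share of the whole range, and chance gives about 1 in 20. Psmc3 at ZnO 4 replicate 4 read -4.55, with the next value of that dose at 2.03. Psmd12 at ZnO 4 replicate 4 read 1.24, with the next value at 2.81. Both spots lay in the area of low signal of that array, and without the array the differences were 1.58 for Psmc3 and 0.71 for Psmd12. Psmb6 at ZnO 4 replicate 2 read 5.34, above the next value of 5.08. Psmd14 at ZnO 16 replicate 4 read 1.95, above the next value of 1.27. Txnl1 at ZnO 16 replicate 4 read -0.56, above the next value of -0.87.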

How the results depend on the processing

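The main counts were 9 members higher and 4 lower, 2669 and 2943 of all genes, and 7 and 4 of the pathway list. With median scaling they were 14 and 2 members, and 2 pathway genes were lower. With no scaling they were 1 higher among members, 229 and 4417 of all genes, and 1 and 8 of the pathway list. With spike-in scaling they were 0 and 7 members, 224 and 5084 of all genes, and 1 and 12 of the pathway list. With no filter on dim probes 5 members were higher, and with normexp 4 pathway genes were. Leaving out each array gave 4 to 9 members higher (fewest without ZnO 4 replicate 1) and 2 to 4 lower (fewest without ZnO 4 replicate 2). The median of all genes moved by 0.15 with normexp, 0.17 with median scaling, -0.75 with no scaling and -0.80 with spike-in scaling.

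With the all-gene shift of normexp and of the 3 scaling settings subtracted, a different count from that above, 7 of the 13 member calls were kept with normexp, 6 with median scaling, 1 each with no scaling and spike-in scaling, 12 with quantile normalization, 7 with no filter, 13 with flagged spots kept, 13 with low-signal areas masked, 10 without the eBayes trend and 6 to 12 with an array left out. Same-numbered arrays of the 2 doses had correlations of deviations of 0.25, 0.40, -0.22 and -0.03. Arrays of different number ran from -0.34 to 0.21, and whether the numbers pair the samples was not tested. With the replicate block there were 11 members higher and 3 lower, 12 of 13 calls were kept, and Psma6 had an adjusted p of 0.0689.

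Differences relative to the all-gene median that changed sign with normexp were -0.015 for Psma1, -0.011 for Psma3, -0.18 for Psma5, -0.24 for Psma7, -0.24 for Psmc1, -0.50 for Psmc5, -0.15 for Psmd4, -0.21 for Psmd6, -0.48 for Psmd7, -0.0060 for Psmd14, -0.043 for Psmd5, -0.020 for Psme1, -0.24 for Psme2, -0.18 for Psmb8 and -0.048 for Vcp. Of these, Psma1 and Vcp were called in the reported fit, and Psmc5 and Psmd7 were called lower with normexp, as was Psmb1 at -0.72. Pomp was 0.058 with quantile normalization. Leaving out each array changed the sign of 10 uncalled members, with ranges of -0.072 to 0.19 for Psma3, -0.052 to 0.11 for Psma5, -0.025 to 0.15 for Psma7, -0.046 to 0.056 for Psmc1, -0.17 to 0.013 for Psmc2, -0.028 to 0.095 for Psmd5, -0.032 to 0.067 for Psmd6, -0.017 to 0.10 for Psmd7, -0.048 to 0.069 for Psme2 and -0.027 to 0.52 for Psme4. The cause of these shifts was not tested. Members near background, Psmd10 and Psme4, have uncertain sizes, as do Psmc3 (SE 1.30), Psmd12 (SE 0.33) and Psmb5 (SE 0.32).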

Other observations

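Several members had repeated spots, which give the spread within an array. Among probes with 10 spots, the median SD between spots was 0.13 log2 units for Psma7, 0.070 for Psmb4, 0.075 for Psme1 and 0.085 for Psme2. Among probes with 2 spots it was 0.061 for Psma1, 0.020 for Psma4, 0.057 for Psma5, 0.041 for Psmb2 and 0.045 for Psmb3. These are below the SD between the 4 arrays of ZnO 16 for the same genes.

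Of 10 spiked-in control transcripts, 7 were well above background on all 8 arrays. Their differences between ZnO 16 and ZnO 4, on the same scale as the genes, ran from -0.65 to 1.57, and 3 members (Psmc3, Psmd10 and Psma2) lay beyond that range. With its low-signal spots masked, Psmc3 was at 1.47, inside the range, and with normexp Psmd10 was at -0.58.

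With flagged spots kept, Psmb4 differed by 0.71 (adjusted p = 0.0280) and Psma7 by 0.39 (adjusted p = 0.142), against 0.38 and 0.04 with those spots left out.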
